A study of Mus musculus with 3 samples.

Results

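Mixed-allele sites are positions at which a line of haploid cells gave some reads with the reference base and some with another base. On chromosome 5 the 3 sequenced haploid embryonic stem cell (ESC) lines shared 328 such sites, selected on measured values: a depth of at least 10 reads and an alternate share of at least 5% and below 80% in each of the 3 lines. The alternate share is the percent of reads with the alternate base among reads with either base. Of 649 positions of chromosome 5 in the deposited variant table, 646 had a single-base substitution, and of these 328 were mixed, 16 were fixed (at least 80% alternate reads in all lines), 52 had under 10 reads in a line and 250 were neither mixed nor fixed. No position of chromosome 5 had a gene name beginning with Olfr or Vmn, so leaving out these receptor families removed none. The table is limited to exonic positions of the annotation that the authors used, so the sites between exons were not analysed here. A lower bound of 20% in place of 5% left 164 mixed-allele sites, and leaving out sites with another position of the table within 100 bp left 52. The genome held 3151 mixed-allele sites among 11544 single-base positions, and chromosome 5 had rank 3 after chromosome 1 (709 sites) and chromosome 4 (555 sites).

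The 3 lines were androgenetic haploid ESCs of C57BL/6 mice, grown in 2i/Lif medium, and each gave 1 whole-genome library. O48 is the parental line at passage 40, labelled WT, although it lacks the differentially methylated regions of H19 and IG. ΔDSM-O48-1 (passage 60) carries knockouts of Dmpk, Six5 and Mbnl1 on the O48 background, and ΔDSMD-O48-2 (passage 70) additionally carries a Dmwd knockout. The edited lines were made by CRISPR/Cas9 and were established as cell lines, so each genotype is 1 line and 1 library here, and genotype, passage and library cannot be told apart.

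A haploid genome holds 1 copy of each chromosome, so a single-copy position has 1 base in each cell. Many gene families of rodents lie in tandem arrays whose copies are nearly identical in sequence, and short reads from such copies are difficult to assign to one of them. On mouse chromosome 5 these arrays include the Speer genes, which encode glutamate-rich proteins of the testis, and relatives of Prame, which encode leucine-rich repeat proteins known mainly from the germ line and the early embryo. The same chromosome holds the Cyp3a genes, which encode cytochrome P450 enzymes of the liver.

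The sequences at a few members show the 2 settings in which most members lay. The first setting was a stretch with a near-identical copy elsewhere in the genome. The lines below give 41 bases of the plus strand of chromosome 5 (GRCm38.p6, the build whose reference base matched at the listed sites) with the site in capitals, and the matching stretch of a copy that has the alternate base, turned to the same orientation. They are shown because these members change, in the deposited annotation, a stop codon or an amino acid of Pisd, C87414, Gm7918 and Cyp3a44. Each was chosen with a copy that has the alternate base, which held for 157 members (47.87%). The gained stop K3* of id77606 is not shown, and its copies have the reference base. The Gm7918 stretch also holds the member A93695510T. Pramel40 has the reference base there, and a copy on an unlocalized contig has both alternate bases.
Pisd, chr5:32737968-32738008: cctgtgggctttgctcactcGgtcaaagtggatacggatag
Pisd-ps1, chr11:3130291-3130331, minus strand: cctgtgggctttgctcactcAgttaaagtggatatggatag
Pisd-ps3, unplaced contig, plus strand: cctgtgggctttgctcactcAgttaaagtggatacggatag
C87414, chr5:93637598-93637638: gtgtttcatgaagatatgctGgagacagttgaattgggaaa
LOC100041672, unlocalized contig of chromosome 5, minus strand: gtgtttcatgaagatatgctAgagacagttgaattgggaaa
Gm7918, chr5:93695492-93695532: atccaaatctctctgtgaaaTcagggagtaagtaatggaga
Pramel40, chr5:94316661-94316701, minus strand: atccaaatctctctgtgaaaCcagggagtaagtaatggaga
Cyp3a44, chr5:145803645-145803685: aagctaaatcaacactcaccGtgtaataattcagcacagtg
Cyp3a41b, chr5:145582496-145582536, plus strand: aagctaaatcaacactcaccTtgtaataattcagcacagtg

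The second setting, found at fewer members, was a stretch in which most neighbouring bases were the alternate base. In the 3′ untranslated regions (UTRs) of Foxk1 and Ung several members stood side by side, and at each of them the alternate base was C. The lines give the plus strand of the reference with the members in capitals.
Foxk1, chr5:142457726-142457753: tcctcccccAcccAccccAcccccattc
Ung, chr5:114138370-114138398: gctgtgacccGcccAcccGcccacaggcc

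The members clustered along the chromosome. They carried 66 gene names, and 276 of the 328 had another position of the table within 100 bp, with a median distance of 18 bp. Joining members less than 500 kb apart gave 9 runs of at least 5 members, which held all but 33 members. The largest run lay between 14910420 and 15714510 and held 156 members (47.6%) in 12 genes, among them Speer4e, Speer4d, Speer4c, Gm17019 and id77606. A second run between 25938769 and 26116639 held 54 members (16.5%) in 11 genes around Speer4a and id78982, and Speer4b at 27.5 Mb held 7 more. Pisd, which encodes the mitochondrial phosphatidylserine decarboxylase that makes phosphatidylethanolamine, held 8 members within 1371 bp. The run at 93.6 Mb held 33 members in C87414 and Gm7918, and the one at 94.3 Mb held 13 members in 9 genes. Smaller runs were formed by id87538 at 110.1 Mb (6 members), by Arpc1b, Cyp3a16, Cyp3a41b, Cyp3a63-ps and Cyp3a44 at 145.1 Mb (13 members) and by Slc7a1 at 148.3 Mb (5 members). None of the 16 fixed sites of chromosome 5 lay inside a run.

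Many names in the table were predicted genes, and RefSeq placed several of them in the families named above. By the table's own symbols, 35 predicted genes held 216 members (65.9%) and 5 Speer genes held 45 (13.7%). By the RefSeq symbol at the position, Speer genes held 92 members (28%), since id77606 overlaps Speer4cos and Speer4c and id77554 overlaps the pseudogene Speer8-ps1. Relatives of Prame held 18 members by the table's symbols and 23 by RefSeq, where C87414 is Pramel34 and Gm6502 is Pramel40. Counts by symbol leave out genes under other names whose sequence has copies in these families. Such are Gm7918 (16 members), with copies in Pramel genes, and Gm17019 (21 members), with copies in Speer genes. The 4 cytochrome P450 genes held 12 members. Of genes with Zfp, Zkscan or Zscan symbols, Zfp513 held 1 member by the table's symbols, and by RefSeq the 6 members of id87538 lie in Zfp605 as well, while the guanylate-binding protein and UDP glucuronosyltransferase genes held 0 members. Near the centromere, 4 members lay in id76523, a stretch within the RefSeq pseudogene V1rg10 of a vomeronasal receptor, which the exclusion by name therefore kept.

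Depth was above that of fixed sites, most of all in the largest run and in Pisd. Over all members O48 had a median depth of 63.5 reads, ΔDSM-O48-1 of 62.5 and ΔDSMD-O48-2 of 59, and the depth of a member reached 759 reads. The 16 fixed sites of chromosome 5 had a median depth of 27.5, 30 and 31 reads, which gave ratios of 2.309, 2.083 and 1.903 for the members, and without the members between 14 and 16 Mb the ratios were 1.491, 1.333 and 1.29. The 3765 fixed sites of all chromosomes had a median depth of 31, 32 and 31 reads, which gave ratios of 2.048, 1.953 and 1.903, and they are the base of the ratios that follow. Mixed-allele sites of the other chromosomes had a like excess, with median depths of 66, 66 and 62 reads. At least 2 times the fixed-site median was reached by 51.8%, 49.4% and 48.2% of members, against 5.79%, 5.74% and 5.74% of fixed sites. In the largest run the ratio of the medians was 4.5, 3.72 and 3.97, and in the run around Speer4a it was 1.66, 1.61 and 1.45. Pisd had ratios of 2.68, 1.83 and 2.03. Members outside the runs had ratios of 0.677, 0.781 and 0.677, below 1 in all 3 lines.

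Genes of the largest run differed in depth. The members of LOC100861755, which RefSeq names Gm21190, had median depths of 9.63, 8.95 and 8.94 times that of fixed sites, and those of LOC100861702 (Gm21149) 8.15, 7.19 and 7.92 times. The 26 members of id77606 had ratios of 5.82, 5.52 and 4.94, and the 11 members of Speer4e 5.03, 4.81 and 5.45. Lower ratios were found for LOC100861621, in RefSeq Gm21083 (3.15, 3.3 and 3.44), and for Gm17019 (3.29, 3 and 2.94), Speer4c (3.15, 2.64 and 2.34), Speer4d (2.19, 2.31 and 2.23) and Gm9758 (1.68, 1.47 and 1.58). The last 4 of these genes had the same order in each of the 3 lines. In the run around Speer4a, id78982 had ratios of 2.26, 2.19 and 2.13 and Speer4a of 1.81, 1.7 and 1.82, while Gm10220 lay close to fixed sites with 1.1, 1.03 and 1.26.

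Reads of either base did not follow the same pattern across the runs. In the largest run, the median member had 97.5, 90.5 and 96 reference reads (3.15, 2.83 and 3.1 times the fixed-site depth) and 26, 23 and 24.5 alternate reads (0.839, 0.719 and 0.79 times). The median of reference reads was thus in excess of the depth of a fixed site, while that of alternate reads stayed below it. Single members went beyond it, as A15680788G of id77606 with 194 alternate reads in O48. In C87414 and Gm7918 both medians were below the fixed-site depth. Their ratios were 0.871, 0.75 and 0.806 for the reference base and 0.645, 0.719 and 0.645 for the alternate base. Pisd was the single run in which the median of alternate reads exceeded the fixed-site depth in any line, with ratios of 1.68, 0.922 and 1.23.

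**Figure D1:**
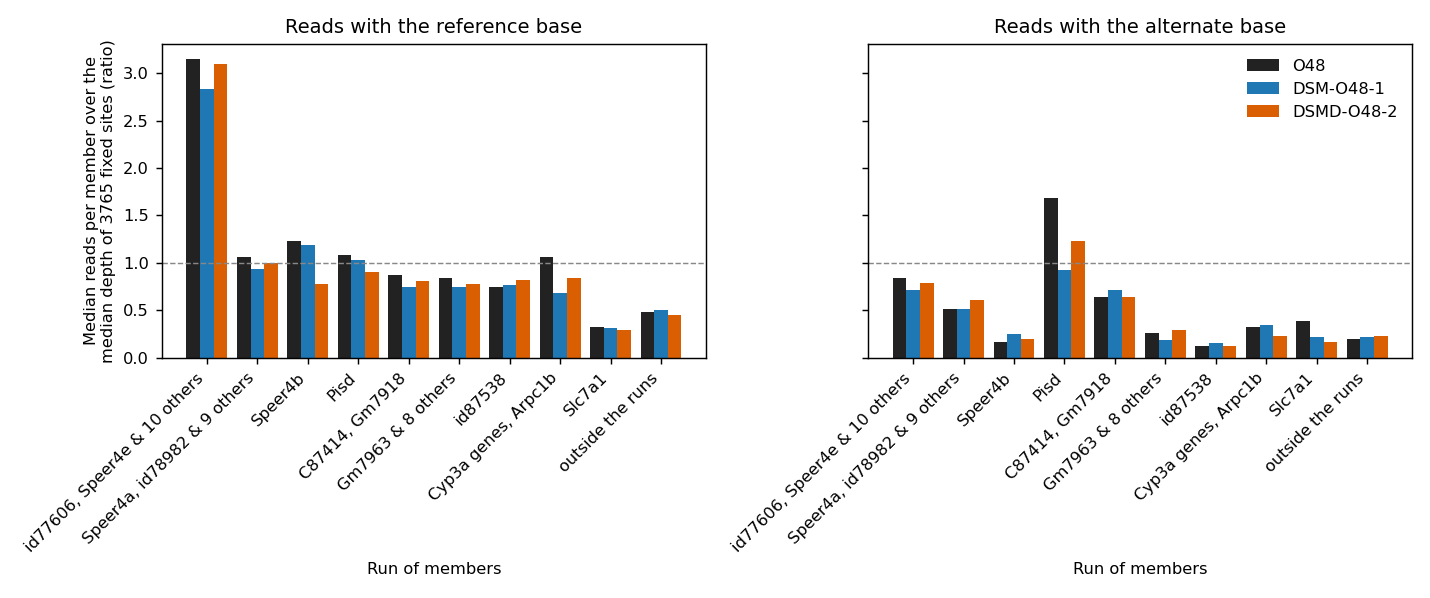
Median reads per member with the reference base (left) and with the alternate base (right), as a ratio to the median depth of 3765 fixed sites in the same line, for each run of members and for the 33 members outside the runs. Bars stand for 3 lines with 1 library each, and the dashed line marks a ratio of 1. The run with id77606 and Speer4e lies near 3 for the reference base, and Pisd has the tallest bars for the alternate base.

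The deepest members lay at the first codons of the gene model id77606, which in RefSeq is exon sequence of Speer4cos outside a coding sequence. Between 15680716 and 15680805 the 5 deepest members had 579 to 604 reads in O48, 543 to 607 in ΔDSM-O48-1 and 643 to 759 in ΔDSMD-O48-2. Their alternate shares were not alike, with means over the lines of 10.17% at C15680774A, 11.64% at G15680739T, 15.19% at G15680805T, 26.79% at A15680716T and 28.84% at A15680788G. Substitutions are written as the reference base, the position on chromosome 5 and the alternate base of the plus strand. Members at 10 times the fixed-site median or more numbered 17, 17 and 16 in the 3 lines (5.18%, 5.18% and 4.88%), close to the 3.69%, 3.9% and 3.82% of fixed sites at that depth, and lay in Gm17019, LOC100861702, LOC100861755, Speer4e and id77606.

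Alternate shares were mostly low. O48 had a median share of 25.09%, ΔDSM-O48-1 of 24.69% and ΔDSMD-O48-2 of 25.3%, and 161 members had a mean share below 25% against 38 with 50% or more. Mixed-allele sites of the other chromosomes had medians of 26.92%, 27.4% and 26.67%. Since the rule bounded the shares, these values are a description. At the median depth, 3 alternate reads would correspond to a share of 4.724%, 4.8% and 5.085%, and the exact 95% interval of a member's share was 22.9, 23.1 and 23.8 points wide in the median. Reads were not marked by molecule, so intervals cover counting error only.

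The runs differed in their usual share. Medians were 17.11%, 17.32% and 18.11% in the largest run, 29.41%, 26.97% and 31.48% in the run around Speer4a, and 44.68%, 44.83% and 42.31% in C87414 and Gm7918. In the latter run the mean shares of single members went from 29.31% to 53.65%, whereas they went from 7.631% to 75.77% in the largest run and from 8.333% to 66.65% around Speer4a. In id87538, 6 members within 103 bp had mean shares from 14.26% to 17.3%, with 3 to 6 alternate reads per line. Members of Pisd went from 17.26% at T32738412C to 76.45% at G32738043T. Across members, depth and share had Spearman coefficients of -0.2025, -0.2364 and -0.2279 in the 3 lines (n = 328 sites that share runs and libraries).

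**Figure D2:**
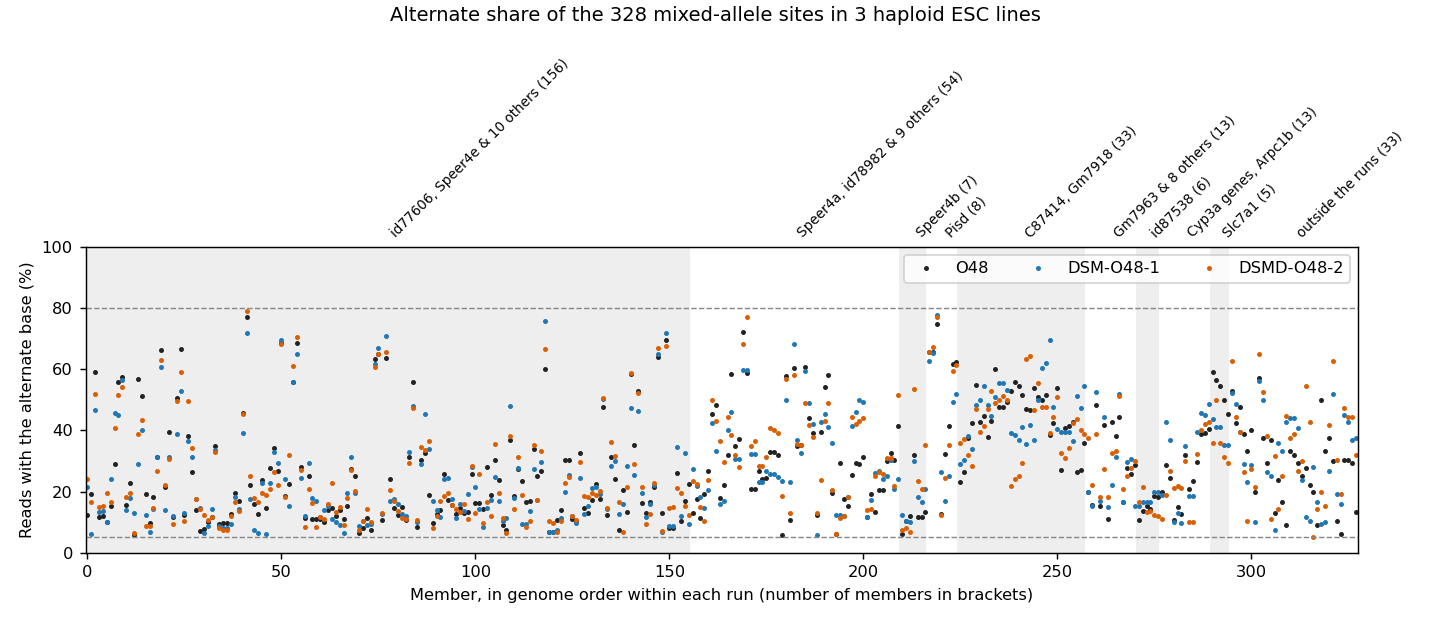
Alternate share (percent of reads) of each of the 328 members in O48, ΔDSM-O48-1 and ΔDSMD-O48-2, 1 library each. Members stand in genome order within their run, grey and white bands separate the runs, and dashed lines mark the bounds of 5% and 80% that chose the members. Most members of the run with id77606 and Speer4e lie below 25%, while those of C87414 and Gm7918 lie around 45%.

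Of the 5 members with the highest and the 5 with the lowest mean share, 9 lay in the largest run or around Speer4a, and 1 lay in Pisd. The highest mean share belonged to Pisd G32738043T (F313L), with 131 alternate of 175 reads in O48, 156 of 201 in ΔDSM-O48-1 and 123 of 160 in ΔDSMD-O48-2. It was followed by id77554 C14978256T at 75.77%, id77606 A15714331G at 69.64% and Gm17019 T15029085C and A15029204T at 68.77% and 67.95%. The lowest mean share was that of LOC100861702 A15471791G in a 3′ UTR, with 15 of 229, 18 of 203 and 16 of 214 reads. The next were 4930572O03Rik T15653545G and G15653542T at 7.712% and 7.962%, Speer4a C26039355A at 8.333% and id77554 A14978155T at 8.342%. Among these 10 members, each of the 5 with high shares had a copy with the alternate base, and none of the 5 with low shares did. Other members did not divide this way. Gm9758 A14914799T had a mean share of 55.95%, and its 23 copies all had the reference base. Speer4b C27496207G had a mean share of 8.75%, and its copies all had the alternate base.

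The bounds of the rule passed between similar sites. Just inside the lower bound lay Cabp1 with a lowest share of 5.263%, id78982 with 5.882% and Speer4e with 5.952%, and just outside it lay adjacent positions of LOC100861728 with 4.878% and 4.762% and Tmed5 with 4.348%. Just inside the upper bound lay id77554 with a highest share of 78.85%, Pisd with 77.61% and id78982 with 76.92%. Just outside it lay id77554 with 80%, id77606 with 80.08% and Speer4e with 81.48%. The lowest depths inside were 10 reads in Cabp1 and 11 in Mll5 and Gm7682, and Mll5, Fosl2 and Gm7942 had positions with 9 reads outside. Of 244 positions that were kept out for a share below 5% in a line, 237 had 0 alternate reads in a line, and 5 more reached 80% in some lines but not in all.

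The authors' genotype calls treated most members as heterozygous. A heterozygous genotype was listed in all 3 lines for 275 members and a reference genotype in at least 1 line for 53, while no member was called homozygous for the alternate base.

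Shares of the same member were then compared between lines, by Fisher's exact test (two-sided) of the reads from 2 libraries and Benjamini-Hochberg adjustment over the 9696 positions with at least 10 reads in all lines. ΔDSM-O48-1 differed from O48 at 1 of 328 members, or 0.305%, where 4.36% of all tested positions passed at an adjusted p below 0.05. ΔDSMD-O48-2 differed from ΔDSM-O48-1 at 0 members, where 4.8% of all positions passed, and from O48 at 0 members, where 5.19% passed. At an unadjusted p below 0.05 there were 19, 21 and 17 members, which are 5.79%, 6.4% and 5.18% of members against 14.4%, 14.9% and 14.7% of all positions. A chi-square test on the same reads called 2 members between ΔDSMD-O48-2 and ΔDSM-O48-1. The rule removed sites without alternate reads in a line, so the lower percentages among members are partly set by the choice, and the test compares libraries, not genotypes.

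The called member was A15680788G of id77606 (T27A), in the deepest stretch. It had 194 of 595 reads with the alternate base in O48 (32.6%, exact 95% interval 28.8% to 36.5%), 140 against 437 with the reference base in ΔDSM-O48-1 (24.3%, 20.8% to 28%) and 225 of 759 in ΔDSMD-O48-2 (29.6%, 26.4% to 33%). The share was lowest in ΔDSM-O48-1, and the interval of ΔDSMD-O48-2 overlapped those of both other lines. The adjusted p of Fisher's exact test was 0.0458 between ΔDSM-O48-1 and O48, and no call was left when p-values were adjusted over mixed-allele sites alone.

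The typical member differed little between lines. The median difference of the alternate share was -0.2222 points for ΔDSM-O48-1 against O48, 0.1485 for ΔDSMD-O48-2 against ΔDSM-O48-1 and 0.7834 for ΔDSMD-O48-2 against O48. Pearson's r across the 328 sites was 0.8527, 0.8673 and 0.8479, a description over sites that share runs. Between the highest and the lowest line, the share of a member spanned 7.892 points in the median, under 10 points at 194 members and at least 20 points at 30.

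**Figure D3:**
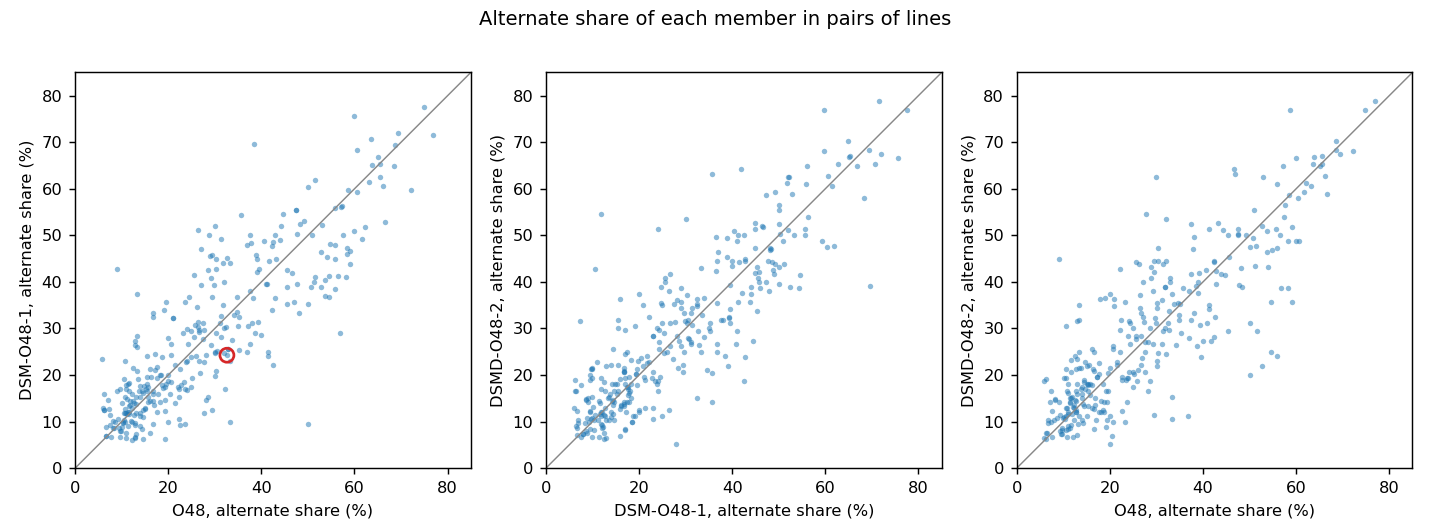
Alternate share (percent of reads) of each of the 328 members in one line against another, for the 3 pairs of lines with 1 library each. The grey line marks equal shares, and the red ring marks the 1 member called different, in id77606. Members follow the diagonal in each panel, with Pearson's r of 0.8527, 0.8673 and 0.8479 from left to right for ΔDSM-O48-1 against O48, ΔDSMD-O48-2 against ΔDSM-O48-1 and ΔDSMD-O48-2 against O48.

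Of the 30 members that spanned at least 20 points, 18 lay in runs, 9 of them in C87414 and Gm7918, and 12 outside the runs. Their depths, as medians over lines, were 16 to 59 reads. The predicted gene id89385 had, at A118503455C, 11 of 22 reads with the alternate base in O48, 2 of 21 in ΔDSM-O48-1 and 4 of 20 in ΔDSMD-O48-2, a span of 40.48 points with the highest share in O48. Ttc28 had, at A111289532C in the 3′ UTR, 1 of 11, 12 of 28 and 13 of 29 reads, a span of 35.74 points with the lowest share in O48. In C87414 and Gm7918, C93671417A had 19 of 34, 15 of 39 and 7 of 29 reads and C93695556T had 15 of 39, 32 of 46 and 20 of 51. None of these 4 members was called different between lines.

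To describe the sequence around the members, 201 bases centred on each were aligned to the chromosomes and the unplaced and unlocalized contigs of GRCm38.p6, and an alignment elsewhere with at least 90% identity over at least 90% of the window was counted as a copy. A copy was present for 294 members (89.63%, exact 95% interval 85.82% to 92.71%). Over all 328 members, those without a copy included, the median number of copies was 15 and the highest 46. Among the 3765 fixed sites, 527 (14%, 12.9% to 15.15%) had a copy. The alternate base stood at the site in a copy for 157 members (47.87%, 42.35% to 53.42%) and for 322 fixed sites (8.552%, 7.678% to 9.492%). A base that was neither reference nor alternate stood in a copy for 45 members (13.72%) and 36 fixed sites (0.9562%). Among sites with a copy, the share with the alternate base in one was 53.4% (47.52% to 59.21%) for members and 61.1% (56.79% to 65.29%) for fixed sites. Sites of a run share their copies, so these intervals treat as independent what is not.

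The runs divided by where their copies lay. All 33 members of C87414 and Gm7918 and all 13 members of the run at 94.3 Mb had the alternate base in a copy on an unplaced or unlocalized contig, and on chromosome 5 itself it was found for 15 and 6 of them. In Pisd the contig with Pisd-ps3 carried the alternate base for 7 of 8 members and another chromosome for 6 of 8. In the largest run 155 of 156 members had a copy on chromosome 5, but the alternate base was found in a copy for 60 (38.46%, 30.79% to 46.58%). In the run around Speer4a it was found for 29 of 54 (53.7%), in Speer4b for 6 of 7 and in the Cyp3a run for 4 of 13. Over all members, 54 had a copy on an unplaced or unlocalized contig, and 53 of these had the alternate base there.

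**Figure D4:**
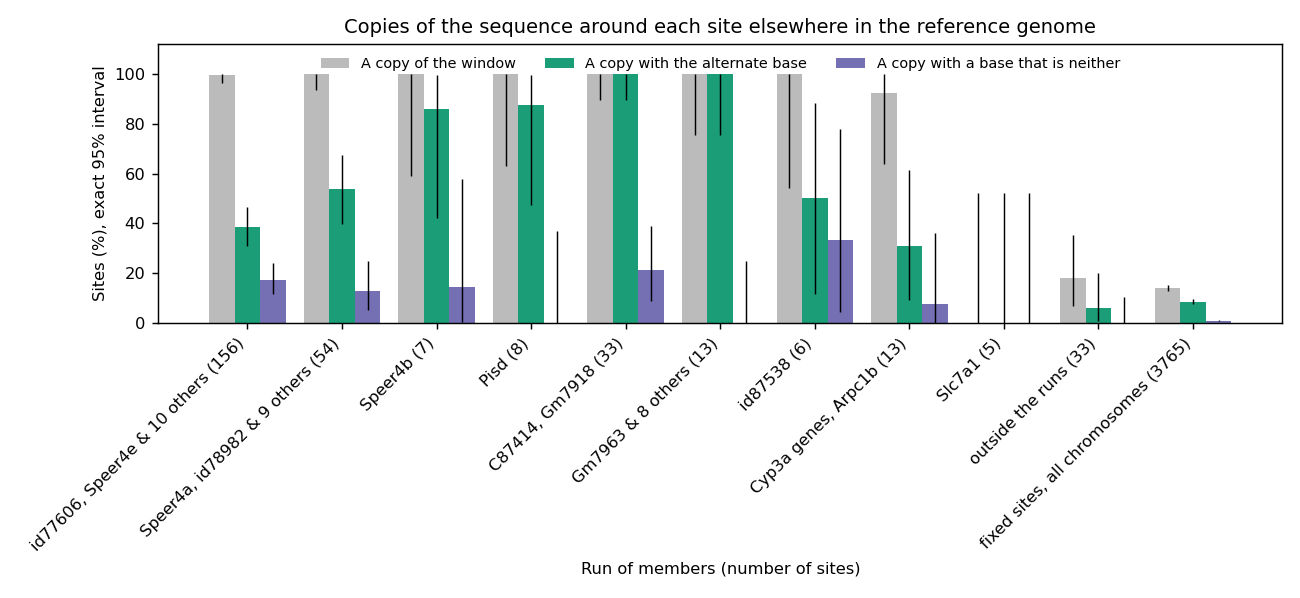
Percent of sites whose 201-base window has a copy elsewhere in the reference (grey), a copy with the alternate base (green) and a copy with a base that is neither (purple), for each run of members, the members outside the runs and the fixed sites of all chromosomes, with the number of sites in brackets. Error bars are exact 95% intervals that cover counting error only. All members of C87414, Gm7918 and the run with Gm7963 have a copy with the alternate base, and Slc7a1 has none.

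At some members the reference base of chromosome 5 was in none of the copies. All copies with a base aligned at the site carried the alternate base at 47 members, and some did at 110. In Speer4a this was seen at 9 of 14 members, in Pisd at 4 of 8, in Cyp3a44 at 2 of 6 and in Speer4b at 2 of 7. The median shares of the 47 members were 37.1%, 39.29% and 35.23%, and those of the 110 members 29.7%, 30.66% and 31.11%. The shares of such members still covered a wide range. Speer4a C26034338G in the 3′ UTR, with the alternate base in all 13 copies, had 81 of 134 reads in O48, 56 of 82 in ΔDSM-O48-1 and 62 of 107 in ΔDSMD-O48-2. Speer4b C27496207G, also with the alternate base in all 13 copies, had 3 of 48, 4 of 32 and 3 of 40 reads.

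The run at 94.3 Mb held relatives of Prame and genes not counted among them above, such as Gm7647, with 1 or a few members in each. Gm7647 T94962980C (S7P) had 23 of 52, 26 of 50 and 22 of 43 reads, with the alternate base in 28 copies and the reference base in 1. AA792892 G94384200A in the 3′ UTR had 29 of 60, 33 of 63 and 21 of 54 reads, although 10 copies had the reference base and 1 the alternate base. These 2 members had the highest mean shares of this run. Gm3139 A94537764C (N428H), in the gene that RefSeq names Pramel42, had the lowest mean share with 4 of 36, 4 of 27 and 6 of 33 reads, and 15 of its copies had the alternate base. High and low shares thus both occurred at sites where most copies carried the alternate base.

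Depth and share also differed with the base in the copies. Members with the alternate base in a copy had median shares of 32%, 32.93% and 32.56% and median depths of 59, 56 and 53 reads. Members with copies of which none carried the alternate base had median shares of 16.67%, 16.9% and 17.92% and median depths of 97, 93 and 98 reads. These groups also differ in their runs. In the largest run 155 members had a copy, and 60 of them had the alternate base in one. All members of that run had median shares of 17.11%, 17.32% and 18.11% and median depths of 139.5, 119 and 123 reads. Whether the difference holds within a run was not tested. A patch of the assembly, which replaces part of chromosome 5 and was not counted among the copies, carried the alternate base for 47 of the 156 members of the largest run, of which 2 had it in no copy. One of these is the called member A15680788G of id77606, whose 4 copies all have the reference base.

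An exact search of shorter windows gave lower numbers. The 41 bases around the site with the alternate base matched elsewhere in the assembly for 109 members (33.23%, exact 95% interval 28.15% to 38.62%), against 183 fixed sites (4.861%) and 514 mixed-allele sites of other chromosomes (18.21%). With the reference base they matched elsewhere for 192 members (58.54%), 212 fixed sites (5.631%) and 40.74% of mixed-allele sites of other chromosomes. The alternate window was found in the same run for 58 members, in another run for 27, elsewhere on chromosome 5 for 28, on another chromosome for 13, on unplaced or unlocalized contigs for 41 and on patches for 32, with some members found in several places. For the member of Srd5a3, a steroid reductase gene, it matched 457678 places. Among the 52 members without another position of the table within 100 bp, the alternate window matched elsewhere for 57.69%.

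Most of the 34 members without a copy, which lay in 23 genes, were of another kind. Without a copy means that no alignment met the bounds for a copy, not that the sequence has no match elsewhere. The shorter alternate window matched elsewhere exactly for the member of Srd5a3, as stated above, and for both members of id79305. The alternate base was C at 26 of the 34 (76.5%), against 75 of the 294 members with a copy (25.5%). At 26 of the 34 (76.5%, exact 95% interval 58.8% to 89.3%), at least 5 of the 6 nearest bases of the reference were the alternate base, as in the Foxk1 and Ung stretches above. This held for 0 of 294 members with a copy (at most 1.25%) and for 43 of 3765 fixed sites (1.14%, 0.828% to 1.54%). The alignment kept the default low-complexity filter of blastn, which can hide copies of such windows. The contrast between members with and without a copy may therefore be partly set by the search. Of the 34, 24 lay in a 3′ UTR, 29 in reference sequence soft-masked as repeats or low complexity (30 of the 294 with a copy) and 27 within 100 bp of another position. Their median depth was 21.5, 21 and 19.5 reads, below that of fixed sites, and their median share was 29.34%, 34.31% and 31.7%.

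In 3 genes with several such members, neighbouring sites had like counts of alternate reads within a line. In Slc7a1, which encodes a transporter of cationic amino acids, the 5 members within 17 bp had 10 to 13 alternate reads in O48 at depths of 22 to 23. In ΔDSM-O48-1 they had 6 to 7 alternate reads at depths of 16 to 17, and in ΔDSMD-O48-2 5 to 7 at depths of 14 to 17. In Foxk1, a forkhead transcription factor gene, the 3 members each had 10 alternate reads in O48, 7 to 9 in ΔDSM-O48-1 and 8 to 9 in ΔDSMD-O48-2. In Ung, the gene of the uracil-DNA glycosylase, the 3 members each had 7 alternate reads in O48, 9 to 11 in ΔDSM-O48-1 and 4 to 7 in ΔDSMD-O48-2. Sites this close share reads and are not independent.

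In the deposited annotation, most coding members changed the protein. Effects were listed as non-synonymous for 169 members, synonymous for 60, a synonymous stop for 2, a gained stop for 3, a lost stop for 1, a 3′ UTR for 78, a 5′ UTR for 10, a gained start for 3 and intragenic for 2. No member was listed at a splice site. Of 235 coding members 173 changed the protein (73.62%, exact 95% interval 67.49% to 79.13%), against 50.69% of 2182 coding fixed sites (48.57% to 52.81%) and 69.48% of coding mixed-allele sites of other chromosomes. RefSeq placed 136 members in coding exons, 143 in other exon sequence, 27 within a gene but in no annotated exon and 22 in no gene, and 100 of the 173 protein-changing members lay in a RefSeq coding exon. The remaining protein changes rest on gene models of the table alone.

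Base changes were less often transitions among members than among the fixed sites of all chromosomes. Transitions, changes within purines or within pyrimidines, made up 46.04% of members (exact 95% interval 40.55% to 51.6%). They made up 71.18% of those fixed sites (69.71% to 72.63%) and 56.08% of mixed-allele sites of other chromosomes. Among the 16 fixed sites of chromosome 5 they made up 56.25%, with an interval of 29.88% to 80.25% that overlapped that of the members. Sites of a run are not independent, and the intervals treat them as if they were. Across the runs, coding members of the largest run were protein-changing at 91 sites and silent at 29. Those of the Cyp3a run were protein-changing at 3 and silent at 8, and the 5 members of Slc7a1 and the 9 of Gm10220 lay in 3′ UTRs.

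**Figure D5:**
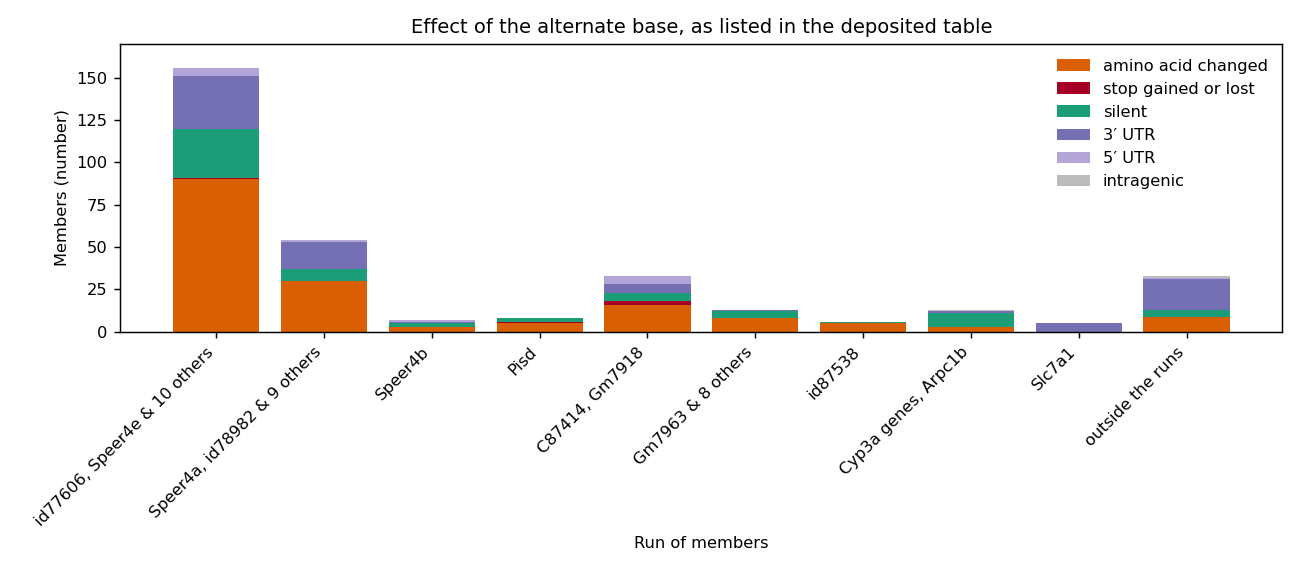
Number of members by the effect that the deposited table lists for the alternate base, for each run of members and for the members outside the runs. Gained starts are counted with the 5′ UTR. Amino acid changes make up the largest part of the run with id77606 and Speer4e, and all 5 members of Slc7a1 lie in the 3′ UTR.

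The gained stop in Pisd, R332*, had similar shares in the 3 lines. At G32737988A the alternate base was read in 55 of 84 reads in O48 (65.5%, exact 95% interval 54.3% to 75.5%), 57 of 91 in ΔDSM-O48-1 (62.6%, 51.9% to 72.6%) and 53 of 81 in ΔDSMD-O48-2 (65.4%, 54% to 75.7%). Both copies of its window, in the pseudogenes Pisd-ps1 and Pisd-ps3, carried the alternate base, as shown in the sequences above. The neighbouring member C32737991T (D331N), 3 bp away, had shares of 65.6%, 65.3% and 67.1%, and both copies carried its alternate base as well. At the 8 members of Pisd the reference base kept 24 to 45 reads in each line, while the alternate base ranged from 4 to 156 reads.

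The other gained stops lay in multicopy genes. In C87414, Q268* at G93637618A had 17 of 45 reads in O48 (37.8%, exact 95% interval 23.8% to 53.5%), 30 of 62 in ΔDSM-O48-1 (48.4%, 35.5% to 61.4%) and 24 of 51 in ΔDSMD-O48-2 (47.1%, 32.9% to 61.5%). Its alternate base stood in 1 copy, on an unlocalized contig of chromosome 5, and the reference base in 7. In id77606, K3* at A15680716T had 178 of 586 reads (30.4%, 26.7% to 34.3%), 147 of 582 (25.3%, 21.8% to 29%) and 159 of 643 (24.7%, 21.4% to 28.3%), and its 4 copies had the reference base. This site, like T27A, lies outside the coding sequence of RefSeq. The lost stop of Gm7918, *307W at T93695512C, had 18 of 35 reads (51.4%), 26 of 42 (61.9%) and 20 of 42 (47.6%). RefSeq has no gene at this site, so the lost stop rests on the deposited annotation alone. Its alternate base stood in 11 copies and the reference base in 21, so both bases were present among the relatives of this gene.

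Gained starts and synonymous stops had lower shares than the Pisd stop. C93638910A of C87414 had 31 of 63, 25 of 47 and 19 of 38 reads with the alternate base, about as many as the other base. C15032997T of Gm17019 had 36 of 143, 31 of 160 and 25 of 124 reads, and A27501375G of Speer4b had 6 of 45, 10 of 48 and 13 of 37. The synonymous stop changes were G14978151A of id77554 with 21 of 224, 16 of 186 and 18 of 223 reads and C110118407T of id87538 with 4 of 26, 5 of 30 and 4 of 30.

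The Cyp3a genes showed how members of a family differed among themselves. In Cyp3a44, G145803665T (T55K) had 14 of 47 reads with the alternate base in O48, 11 of 28 in ΔDSM-O48-1 and 10 of 31 in ΔDSMD-O48-2, and each of its 4 copies carried the alternate base. T145801325A (I57L), whose 4 copies also all carried the alternate base, had 6 of 29, 5 of 27 and 2 of 20 reads. The remaining 4 members of Cyp3a44 had mean shares from 17.28% to 43.95%, and no copy carried their alternate base. Among them, A145801326G is the base next to T145801325A and had shares like it, of 23.3%, 18.5% and 10%. The members of Cyp3a16 and Cyp3a41b were all synonymous, with mean shares of 13.95% to 29.96% and 14.57% to 16.59%.

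Outside the runs, Ran, Bmp3 and Tnrc18 were among the genes with a single member. The member of Ran, the small GTPase of nuclear transport, had shares of 33.33%, 10% and 15.38%, that of Bmp3, a bone morphogenetic protein gene, 16.67%, 33.33% and 25%, and that of Tnrc18 13.33%, 37.5% and 31.82%. None of these was called different between lines. The window of the Ran member had 3 copies, none with the alternate base. The members of Bmp3 and Tnrc18 had no copy and lay in soft-masked reference sequence. The 4 members of the pseudogene id76523 had mean shares from 31.3% to 55.87%, and the reference base stood in all 5 copies at 3 of them and the alternate base in all 5 at the fourth.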

How the data were processed

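Genomic DNA of 3 lines was sequenced, and the authors deposited 1 table of exonic variants of the 3 libraries. The deposited table gives, per line, counts of all reads, of reads with the reference base and of reads with the alternate base, a genotype and, per site, a quality score, which was not used. The submitters' processing notes name CASAVA 1.8.2, BWA 0.7.12, SAMtools, Picard, GATK and mm10 without roles. Filters of the caller and the treatment of reads with several matches are not given in the sources used here, and both bear on depth and alternate share in multicopy genes. The columns named 048 were read as O48.

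Positions listed for several transcripts were kept once, with the effect of highest impact. The genes named were the 10 with most members, those with a stop, start or splice-site change, those of the 5 members highest and the 5 lowest in mean share, of the 5 deepest, of those called different and of the 3 on either side of each bound. Other genes (leading a run, in the listed families, in C-rich stretches, of a wide span or outside the runs) were chosen after their values were seen. Some sequences and the site they carry are not reported here. The members and lists were chosen with earlier results of these data known. Positions with at least 10 reads in all lines were tested between lines by Fisher's exact test (two-sided) with Benjamini-Hochberg adjustment (scipy 1.17.1), after testing on simulated data. Shares carry exact Clopper-Pearson intervals. Depth at members summed to 34508, 32718 and 32983 reads in O48, ΔDSM-O48-1 and ΔDSMD-O48-2.

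Windows of 41 bases were searched in GRCm38.p6 by exact match on both strands, and windows of 201 bases were aligned with blastn 2.17.0. Reference bases matched at all 344 mixed or fixed sites of chromosome 5. Gene parts and symbols come from RefSeq. Python 3.11.15, pandas 2.3.3, numpy 2.4.6, numba 0.67.0 and matplotlib 3.10.9 were used.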

Additional observations from a re-analysis of the deposited data

How the results depend on the processing

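The number of mixed-allele sites (328) was 164 with a lower bound of 20% and 52 without sites within 100 bp of another position, and it lay between 274 and 337 under the 6 other alternatives. The count of members differing between ΔDSM-O48-1 and O48 (1) was 0 with adjustment over mixed-allele sites, and the count between ΔDSMD-O48-2 and ΔDSM-O48-1 (0) was 2 with a chi-square test. The share of members whose 41-base alternate window is found elsewhere (33.23%) was 27.74% with 61 bases, 25.61% on chromosomes 1 to 19, X and Y alone, 57.69% without sites within 100 bp and, in an alternative chosen after seeing the data, 40.7% without the members between 14 and 16 Mb. The share with the alternate base in a copy (47.87%), a measure that was added after seeing the data, was 39.94% on chromosomes 1 to 19, X and Y alone and 56.4% without the members between 14 and 16 Mb. The median depth over that of the fixed sites of chromosome 5 was 2.309 in O48 and 2.048 against fixed sites of all chromosomes. Without the members between 14 and 16 Mb this ratio was 1.491 in O48 (in place of 2.309), 1.333 in ΔDSM-O48-1 (in place of 2.083) and 1.29 in ΔDSMD-O48-2 (in place of 1.903). The shares of protein-changing members and of transitions kept within their intervals under the alternatives run. Causes of these shifts were not tested. At the median depth of members, shares below about 5% in a line rest on 3 reads or fewer. No paired analysis was possible because each line has 1 library.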
